A study of Mus musculus with 6 samples.

Results

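Oxidative phosphorylation genes encoded in the nucleus were followed in cultured muscle satellite cells (SCs), the stem cells of skeletal muscle, of WT and *Ltf*-KO mice. A gene was included when the deposited annotation placed it in the oxidative phosphorylation pathway of KEGG and its symbol did not mark it as a gene of the mitochondrial genome. This gave 119 of the 55416 genes in the table, and the 13 mitochondrially encoded genes of the same pathway were kept apart. The SCs had been sorted from muscle as Sca1-, CD11b-, CD34+ and α7-integrin+ cells and were harvested on day 4 of culture in serum-rich growth medium with no further treatment. Both genotypes were handled alike, and 3 libraries were sequenced of each. *Ltf*-KO mice carry a systemic deletion of part of *Ltf*, the gene of lactoferrin, made with CRISPR-Cas9 guides in introns 2 and 8 in C57/BL6N zygotes, and the WT mice have the intact gene. The age given for the mice of the study is 8 to 10 weeks, apart from stated exceptions. How many mice stand behind each library is not given in the sources used here, so p-values measure only the spread between these libraries.

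Oxidative phosphorylation is the process by which mitochondria make most of the ATP of a resting cell. Complexes I, III and IV pass electrons from NADH to oxygen and pump protons out of the matrix, complex II feeds in electrons from succinate, and ATP synthase lets the protons flow back to make ATP. Most subunits are encoded in the nucleus. The pathway map also holds the V-ATPase, a proton pump that consumes ATP to acidify lysosomes and endosomes and is not part of the respiratory chain. Several subunits of complex IV, cytochrome c oxidase, exist as a ubiquitous form and a form known from heart and skeletal muscle, and muscle cells take up the second form as they mature.

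The values were read as TPM from the totals of the columns, since no header states the unit. TPM is corrected for gene length, so that levels of different genes can be set side by side within a library. The columns summed to between 993650 and 994356 TPM, and between 12828 and 12951 genes reached 1 TPM in a library. TPM keeps no record of the number of reads, and the depth of the libraries is unknown. The targeted gene *Ltf* was listed at 0.12, 0.02 and 0.02 TPM in WT replicates 1, 2 and 3 and at 0.02, 0.03 and 0 TPM in *Ltf*-KO replicates 1, 2 and 3. It was close to 0 in both genotypes, so its level does not check the genotype labels. Single values below are given in the same order of replicates.

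The cells carried the markers of their label. All 8 SC and myoblast markers were present, with *Pax7* between 36.6 and 43.3 TPM and *Myod1*, a regulator of the muscle lineage, between 748 and 816 TPM. Of the markers used in the sort, *Itga7* (α7-integrin) ran from 371 to 416 TPM. *Cd34* was the lowest of the 8, at 4.41 to 6.20 TPM. Differentiation had begun in every culture and to different extents. *Myog*, which marks myoblasts that leave the cell cycle, stood at 319, 410.3 and 293 TPM in WT and at 360.4, 266 and 508 TPM in *Ltf*-KO. Summed over the 8 markers of differentiated myocytes, of which *Acta1* was the most abundant, the level was 1952, 2449 and 1797 TPM in WT and 2121, 1833 and 2910.3 TPM in *Ltf*-KO. *Ltf*-KO replicate 3 was thus the most differentiated culture by these markers, and WT replicate 3 and *Ltf*-KO replicate 2 the least. All 8 markers had a positive log2 fold change of *Ltf*-KO against WT (median 0.14), whereas 44.3% of all tested genes were lower in *Ltf*-KO. None of the 8 had an unadjusted p under 0.05 in limma, and the genotypes overlapped for each. *Ltf*-KO replicate 3 was the highest library for all 8, so their directions are not independent of each other.

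Markers of other cell types were low. The 5 fibroblast and fibro-adipogenic markers, led by *Col1a1*, summed to 8.21, 11.5 and 14.8 TPM in WT and 16.0, 20.2 and 12.3 TPM in *Ltf*-KO. The 4 of them that were tested were all higher in *Ltf*-KO, with a median log2 fold change of 0.32. The 4 endothelial markers, led by *Cdh5*, summed to 5.21, 4.86 and 9.70 TPM in WT and 8.01, 9.85 and 4.50 TPM in *Ltf*-KO. Both sums thus stayed far under the summed muscle markers. Single muscle markers were as low, with *Cd34* and *Ckm* at means of 5.70 and 5.08 TPM beside 5.98 TPM for *Col1a1*. The 4 smooth muscle and pericyte markers, led by *Cspg4*, summed to 36.2, 38.8 and 40.2 TPM in WT and 44.25, 49.6 and 36.6 TPM in *Ltf*-KO. Of these 4, *Pdgfrb* was the one marker of another cell type at an unadjusted p under 0.05. Its unadjusted p was not under 0.05 without WT replicate 1, *Ltf*-KO replicate 1 or *Ltf*-KO replicate 2. It averaged 4.11 ± 0.526 TPM in WT and 6.42 ± 1.43 TPM in *Ltf*-KO (SD, n = 3 each). The 3 erythroid markers, led by *Hbb-bs*, summed to 9.60, 11.4 and 9.43 TPM in WT and 9.35, 12.9 and 9.52 TPM in *Ltf*-KO. RNA of blood cells was low, and the defining leukocyte marker *Ptprc* did not pass 0.16 TPM. The 5 macrophage and leukocyte markers, led by *Cd68*, summed to 11.1, 5.96 and 4.40 TPM in WT and 4.58, 4.61 and 3.50 TPM in *Ltf*-KO. In WT replicate 1 most of this sum was *Lyz2*, at 7.22 TPM. Markers of brown fat, a tissue rich in this pathway, were very low, with *Ucp1* listed at 0 in all 6 libraries and its 3 markers, led by *Cidea*, summing to at most 0.73 TPM. In bulk RNA, fewer cells of a type and less RNA per cell cannot be told apart.

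Transcripts of the pathway were abundant in all libraries. The 119 genes together made up 3.14%, 3.14% and 3.12% of all TPM in WT and 3.13%, 3.04% and 3.15% in *Ltf*-KO. In TPM this was 31123 ± 125 in WT and 30900 ± 575 in *Ltf*-KO (SD, n = 3 each), so the genotypes overlapped and the lowest library was *Ltf*-KO replicate 2. A mean of at least 1 TPM was reached by 104 genes, with a median of 189 TPM against 16.04 TPM over all 12956 genes that passed the same minimum, and 79 of the 104 stood at 100 TPM or more. Among genes at 100 TPM or more, the median coefficient of variation within genotypes was 4.07% for the pathway genes and 3.79% for the other 1312 genes.

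**Figure D1:**
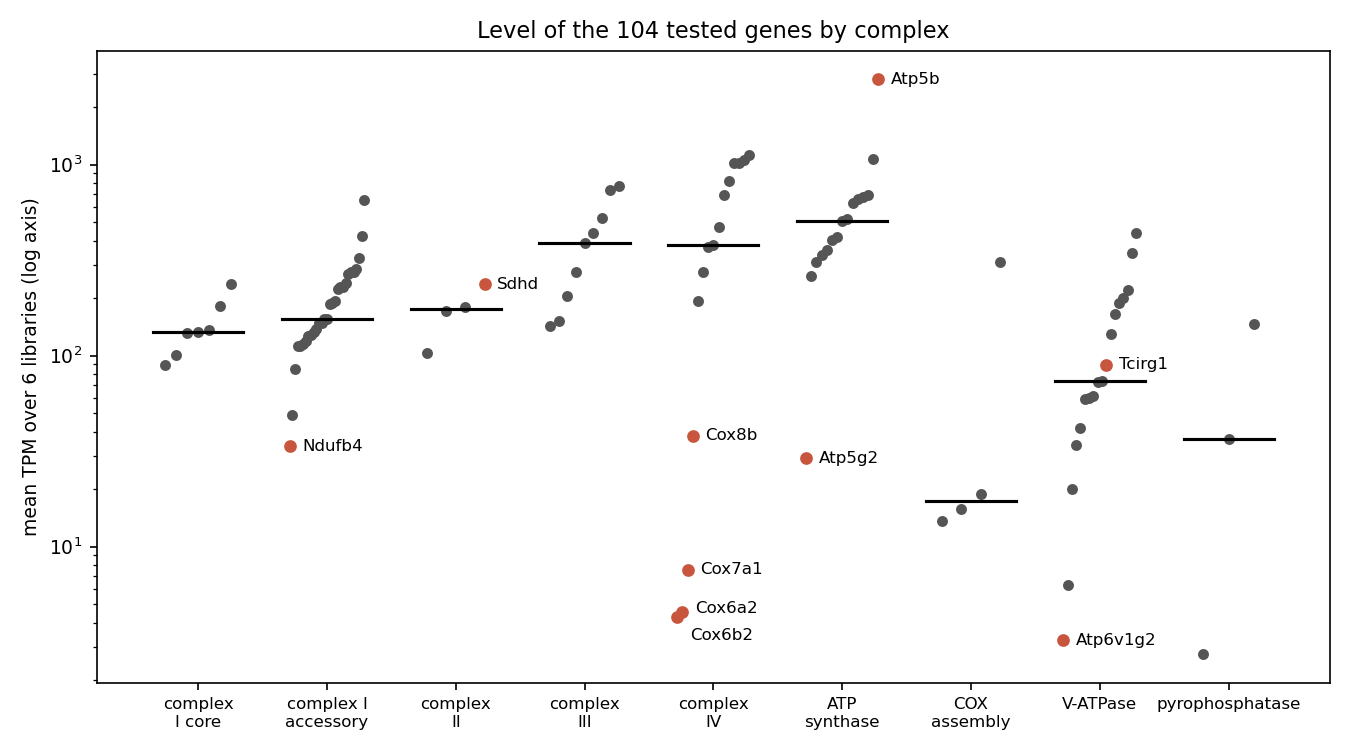
Mean TPM over the 6 libraries (log axis) of the 104 tested genes, one point per gene, arranged by complex, with a line at the median of each complex and selected genes in red with their names. Most genes of complexes III and IV and of ATP synthase lie above those of complex I and the V-ATPase, and the muscle forms *Cox8b*, *Cox7a1* and *Cox6a2* lie far below the ubiquitous forms of complex IV, as does *Cox6b2*.

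The complexes were not represented at equal levels. By the median over their tested genes, ATP synthase stood highest at 509.8 TPM, followed by complex III at 388 TPM, complex IV at 382 TPM and complex II at 175 TPM. Complex I was lower, at 156 TPM for its accessory subunits and 133 TPM for the core subunits that carry out electron transfer. The V-ATPase stood at 73.3 TPM. The median of complex IV counts *Cox8b*, *Cox7a1*, *Cox6a2* and *Cox6b2*, all of low level, and its place in this order depends on counting them.

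Complex I, the NADH dehydrogenase and the entry point of most electrons, counted 37 genes, 7 of them core subunits. Among the core subunits, *Ndufv2* averaged 89.4 TPM and *Ndufs8* 182 TPM. Among accessory subunits, *Ndufa4* was the most abundant at 655 TPM and *Ndufa12* the next at 425 TPM. *Ndufa4* is listed with complex I in the pathway map, although its protein is now regarded as a subunit of cytochrome c oxidase. Its relative known from low oxygen, *Ndufa4l2*, was at most at 0.60 TPM.

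Complex II, succinate dehydrogenase, is the one complex of the respiratory chain with no mitochondrially encoded subunit, and has 4 genes. *Sdhd*, a membrane anchor, averaged 236 TPM, the flavoprotein *Sdha* 179.8 TPM, the iron-sulfur subunit *Sdhb* 171 TPM and the other anchor *Sdhc* 103 TPM. The ratio of *Sdhd* to *Sdhc* was 2.38 ± 0.0943 in WT and 2.23 ± 0.0358 in *Ltf*-KO (SD, n = 3 each). In complex III, which hands electrons to cytochrome c, the small subunits *Uqcr10* at 773 TPM and *Uqcrh* at 737 TPM led among the nuclear genes. The Rieske protein gene *Uqcrfs1* was the lowest of these genes at 142 TPM.

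ATP synthase held the most abundant nuclear gene of the pathway. *Atp5b*, the catalytic β subunit, was listed at 2872, 2803 and 2589 TPM in WT and 2911, 2681 and 2908 TPM in *Ltf*-KO. Its partner in the same ring, the α subunit *Atp5a1*, stood at 699, 708 and 679 TPM in WT and 686, 667 and 707 TPM in *Ltf*-KO. Both proteins enter the enzyme in equal numbers, whereas the ratio of their transcripts was 3.96 ± 0.150 in WT and 4.12 ± 0.113 in *Ltf*-KO (SD, n = 3 each). The genotypes overlapped in this ratio, which ran from 3.81 in WT replicate 3 to 4.24 in *Ltf*-KO replicate 1.

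The c subunit, which forms the rotating ring in the membrane, is made from 3 genes whose mature proteins are the same. *Atp5g3* supplied 66.2% of their summed TPM, *Atp5g1* 32.0% and *Atp5g2* 1.79%, as means over the 6 libraries. The share of *Atp5g2* is uncertain. Of the words of 31 bases in its transcripts (GENCODE M21), 37.5% also occur in *Gm10175*, a gene outside the pathway that was listed at 622 TPM against 29.0 TPM for *Atp5g2*, and how the authors' counting divided reads between them is not given in the sources used here. *Ndufb4* was a second such gene. It had 33.6 TPM, the lowest level among the tested complex I genes, while *Ndufb4c*, which holds 19.1% of its words, had 204 TPM. *Atp5l* shared 4.32% of its words with *Gm10221*, at 375 TPM. These copies were found by a search made after the values were seen. For 83 of the 104 tested genes under 1% of the words occurred in another gene at 1 TPM or more, and *Ndufa13*, *Cox6b1* and *Atp5k*, described below, shared none, while *Ndufb10*, also described below, shared 1.26%.

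Complex IV reduces oxygen to water. Its most abundant nuclear genes were *Cox4i1* at 1130.4 TPM and *Cox6a1* at 1057 TPM, both ubiquitous forms. *Cox4i1* varied little, between 1109.7 and 1147 TPM. The 4 genes in the map that serve the assembly of complex IV were lower apart from the copper chaperone *Cox17*, at 311 TPM. The heme A synthesis genes *Cox10* and *Cox15* averaged 18.8 and 13.7 TPM, and *Cox11*, which delivers copper, 15.7 TPM.

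The muscle forms of complex IV were minor in these cultures. *Cox8b* was the highest of them, at 38.04, 39.9 and 38.7 TPM in WT and 35.9, 29.5 and 46.8 TPM in *Ltf*-KO, while its ubiquitous partner *Cox8a* ran from 966 to 1050.5 TPM. The WT libraries lay close together and inside the range of the *Ltf*-KO libraries. *Cox6a2* was listed at 5.24, 4.05 and 3.19 TPM in WT and 5.80, 2.45 and 6.45 TPM in *Ltf*-KO. *Ltf*-KO replicate 2 was lowest and *Ltf*-KO replicate 3 highest for both genes, which was also the order of *Myog* among the *Ltf*-KO libraries. In WT the order did not hold for *Cox6a2*, which was highest in replicate 1 while *Myog* was highest in replicate 2, and *Cox8b* hardly varied. *Cox7a1* ran differently, at 4.25, 10.2 and 4.79 TPM in WT and 6.01, 11.2 and 9.03 TPM in *Ltf*-KO, with its highest level in *Ltf*-KO replicate 2. WT replicate 2 was nearly as high, and the genotypes overlapped.

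**Figure D2:**
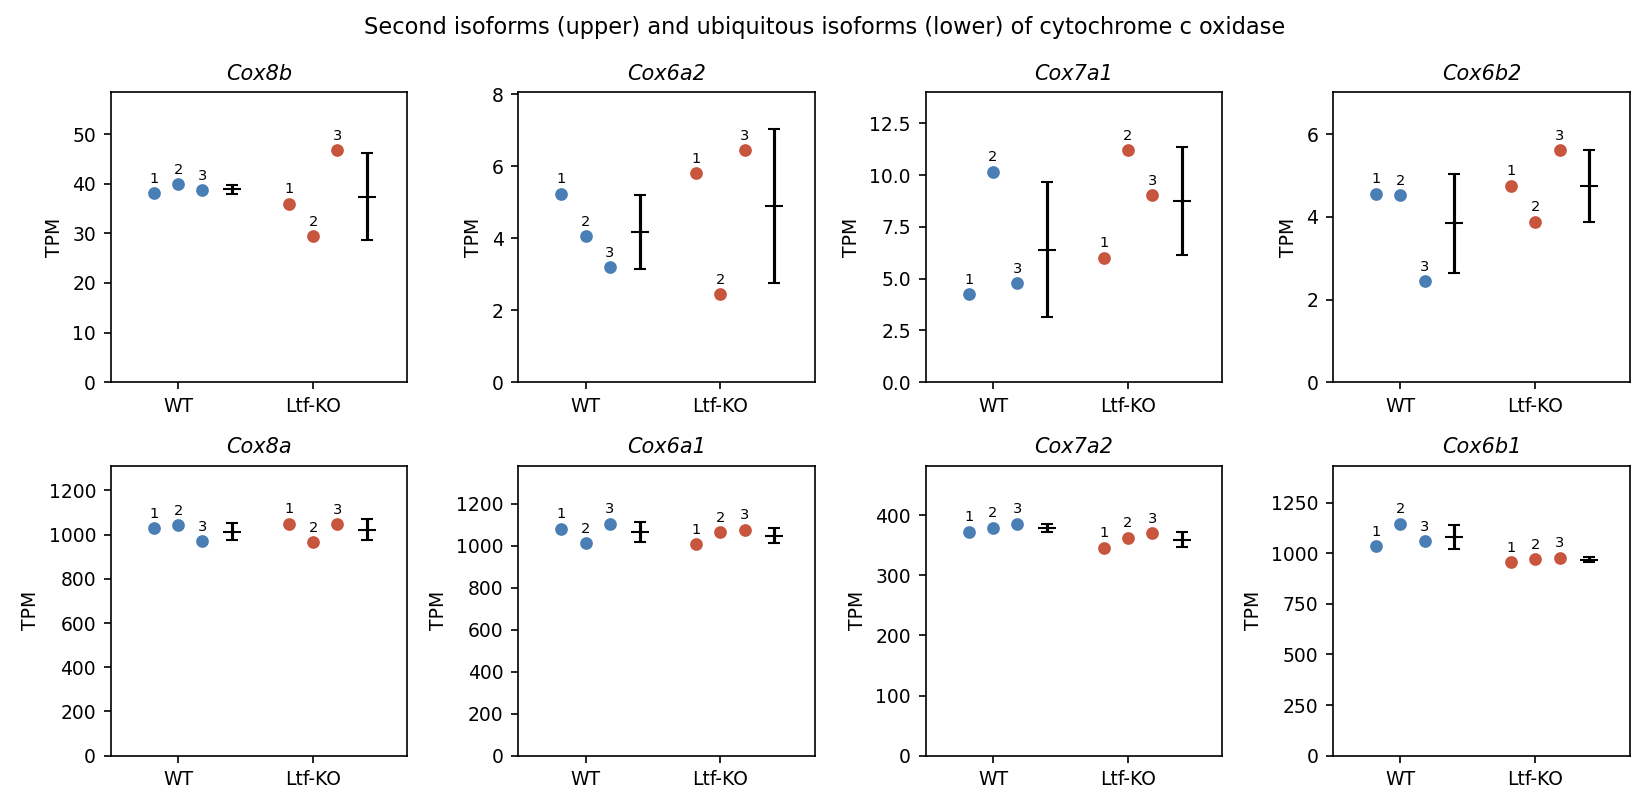
TPM of the less abundant (upper) and the ubiquitous (lower) form of complex IV subunits 8, 6A, 7A and 6B in each library, with replicate numbers beside the points and bars for the mean and SD of 3 libraries. *Cox8b* runs from 29.5 to 46.8 TPM within *Ltf*-KO, a range that contains all WT libraries, while *Cox6b1* is lower in all *Ltf*-KO libraries than in any WT library.

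As a share of its family, *Cox8b* made up 3.69 ± 0.135% in WT and 3.51 ± 0.681% in *Ltf*-KO, and *Cox7a1* made up 1.66 ± 0.829% and 2.37 ± 0.647% (SD, n = 3 each). *Cox6a2* made up 0.390 ± 0.0976% and 0.467 ± 0.205%. *Cox4i2*, a form known from lung and from low oxygen, made up 0.0406 ± 0.0348% and 0.0297 ± 0.0306%. A two-sided exact permutation test of the shares gave p = 0.7 for *Cox8b*, 0.3 for *Cox7a1*, 0.6 for *Cox6a2* and 0.7 for *Cox4i2*. After Benjamini-Hochberg adjustment over 4 families p was 0.7 for each. With 3 libraries against 3 the smallest p of this test is 0.1. It could not fall under 0.05 with any values, so it does not decide whether a share differed. The difference in the *Cox8b* share changed sign without *Ltf*-KO replicate 2, to 0.0953 percentage points, and that of *Cox4i2* without WT replicate 2, to 0.00817. When each library was left out in turn, the difference ran from 0.0121 (without *Ltf*-KO replicate 3) to 0.195 (without *Ltf*-KO replicate 2) for *Cox6a2*, against 0.0769 with all libraries. For *Cox7a1* it ran from 0.391 (without *Ltf*-KO replicate 2) to 1.19 (without WT replicate 2), against 0.710 percentage points. All 4 differences thus depended on single libraries.

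Forms known from testis were near the floor as well. *Cox6b2* averaged 4.30 TPM beside 1024 TPM for *Cox6b1*, and *Cox7b2* and *Cox8c* were listed at 0 throughout, beside 276 TPM for *Cox7b*. One library stood apart for *Cox7b*, chosen here after its values were seen, with 344 TPM in WT replicate 3 and 257 to 267 TPM in the other 5.

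The V-ATPase genes followed the same rule of one prevailing form per subunit, with an exception in the a subunit, which anchors the pump in its membrane. *Tcirg1*, the a form known from osteoclasts and immune cells, made up 62.4% of the summed TPM of the 4 a genes, ahead of *Atp6v0a2* at 23.7% and *Atp6v0a1* at 14.0%. It was listed at 94.9, 86.1 and 97.2 TPM in WT and 85.4, 87.6 and 88.0 TPM in *Ltf*-KO. The osteoclast and macrophage form *Atp6v0d2* did not pass 0.13 TPM. Of the macrophage and leukocyte markers, *Ptprc*, *Adgre1* and *Itgam* did not pass 0.16 TPM, while *Cd68* ran from 3.12 to 3.98 TPM. *Lyz2* stood at 7.22, 2.31 and 0.38 TPM in WT and 1.11, 0.95 and 0.38 TPM in *Ltf*-KO. The part of such cells in the level of *Tcirg1* was not tested. For the B, C, d, E and G subunits, *Atp6v1b2*, *Atp6v1c1*, *Atp6v0d1*, *Atp6v1e1* and *Atp6v1g1* each held at least 99.1% of their family in every library. The kidney form *Atp6v1g3* was listed at 0, and *Atp6v0a4* and *Atp6v1b1* did not pass 0.080 TPM. *Atp6v1e2*, known from testis, was at most at 0.39 TPM and *Atp6v1c2* at 0.67 TPM. The most abundant V-ATPase genes were *Atp6v1g1* at 438 TPM and the proteolipid *Atp6v0c* at 345 TPM.

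The remaining genes of the map were pyrophosphatases, which split the pyrophosphate released by biosynthesis, and the gastric and colonic proton pumps. Cytosolic *Ppa1* averaged 147 TPM and mitochondrial *Ppa2* 36.4 TPM, or 80.2% and 19.9% of their sum, and *Lhpp* 2.74 TPM. The proton pump genes *Atp4a*, *Atp4b* and *Atp12a* did not pass 0.50 TPM. They belong to the 15 genes under the minimum of 1 TPM, together with 6 V-ATPase forms, *Ndufa4l2*, *Cox4i2*, *Cox7b2*, *Cox8c*, the pseudogene *Cox5b-ps* and the predicted gene *Gm21987*. Of these 15, 5 were listed at 0 in every library.

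The comparison of genotypes asked whether the loss of *Ltf* goes with another level of these genes. Over the 104 tested genes the median log2 fold change of *Ltf*-KO against WT on the log2(TPM + 1) scale was -0.01, beside 0.01 over all 12956 tested genes. Of the 104, 57 were lower and 47 higher in *Ltf*-KO (54.8% lower), beside 5736 lower and 7220 higher (44.3% lower) of all tested genes. The share of lower genes depended on the scaling and on single libraries, at 64.4% after median-of-ratios scaling, 51.9% after quantile normalization and 50% with either WT replicate 3 or *Ltf*-KO replicate 2 left out. Of the 104, 92 differed by less than 0.1 on this scale. The 95% interval of the log2 fold change lay within 1.5-fold in either direction for 101 of the 104 genes. The exceptions were *Cox6a2*, *Cox6b2* and *Cox7a1*, all with a mean under 10 TPM, where the log2(TPM + 1) scale understates a change.

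No gene of the pathway passed an adjusted p of 0.05 in limma, with p adjusted by the Benjamini-Hochberg method over all tested genes, and this was also so for the whole table, where the share called was 0%. Without adjustment, p was under 0.05 for 4 of the 104 (3.85%), beside 3.78% of all tested genes. Of these 4, 3 were lower in *Ltf*-KO, where the share of all tested genes was 1.78%, and 1 was higher, where it was 2.01%. The libraries of the genotypes did not overlap for 12 of the 104 genes (11.5%), beside 8.46% of all tested genes. These shares are near those of the whole table.

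**Figure D3:**
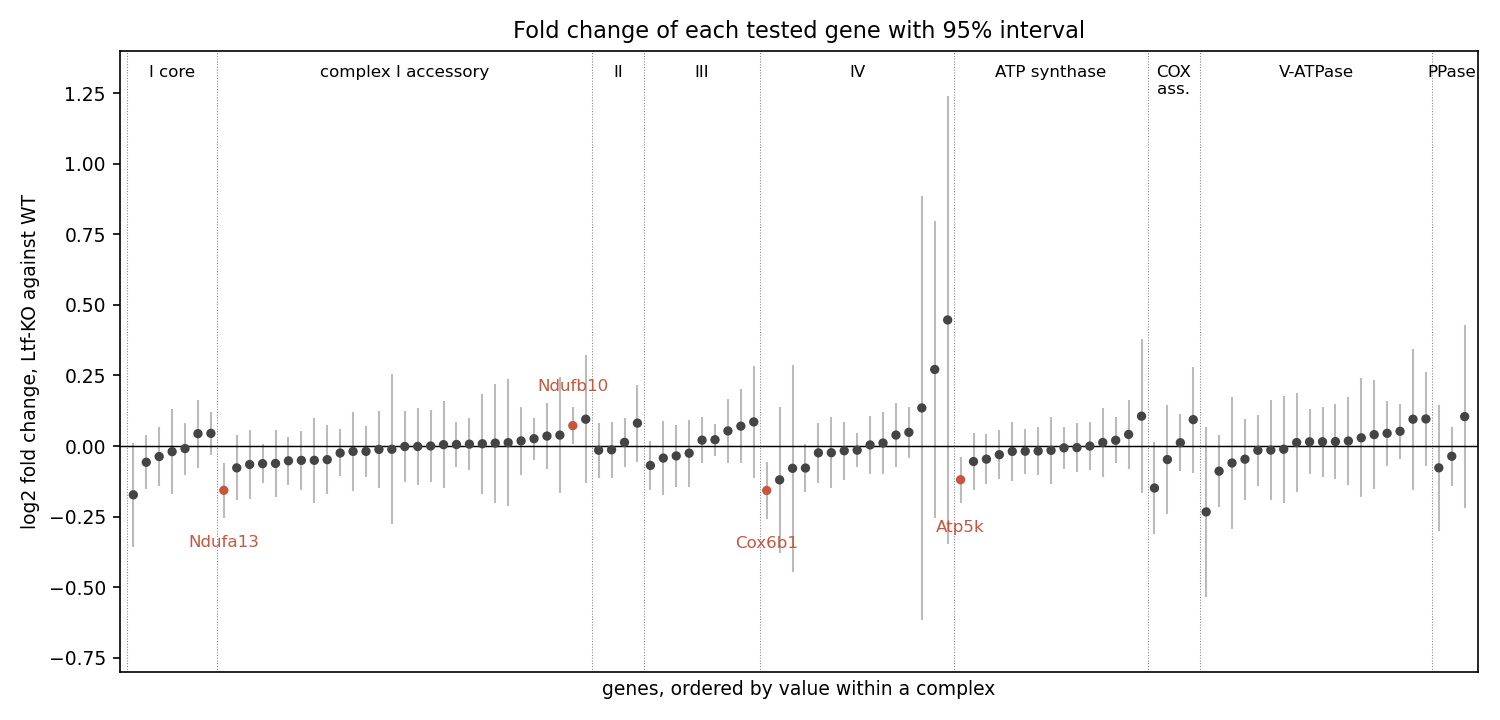
Log2 fold change of *Ltf*-KO against WT on the log2(TPM + 1) scale for each of the 104 tested genes, ordered within complexes, with 95% intervals as bars and 4 genes in red whose unadjusted p was under 0.05. Nearly all points lie close to 0, and the widest intervals belong to *Cox7a1*, *Cox6a2* and *Cox6b2* in complex IV.

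Of these 4 genes, *Ndufa13* and *Ndufb10* belong to complex I, *Cox6b1* to complex IV and *Atp5k* to ATP synthase. *Ndufa13* (ENSMUSG00000036199), a complex I subunit also known as GRIM-19, was listed at 90.0, 87.7 and 90.6 TPM in WT and at 77.6, 79.5 and 83.1 TPM in *Ltf*-KO. All *Ltf*-KO libraries lay below all WT libraries, and the log2 fold change was -0.16 (95% interval -0.25 to -0.06). *Cox6b1* (ENSMUSG00000036751), the subunit that faces cytochrome c at the dimer of complex IV, stood at 1035, 1147 and 1059.7 TPM in WT and 954, 971 and 977 TPM in *Ltf*-KO, again without overlap. Its log2 fold change was -0.16 (95% interval -0.26 to -0.06).

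*Atp5k* (ENSMUSG00000050856), the e subunit that helps ATP synthase form dimers, was listed at 644, 649 and 677 TPM in WT and 617, 586 and 610.0 TPM in *Ltf*-KO. Its log2 fold change was -0.12 (95% interval -0.20 to -0.04). *Ndufb10* (ENSMUSG00000040048), a subunit of the membrane arm of complex I, was the one gene of the 4 with higher values in *Ltf*-KO, at 277, 278 and 274 TPM in WT and 293, 291 and 288 TPM in *Ltf*-KO. Its log2 fold change was 0.07 (95% interval 0.01 to 0.14). Each of the 4 had an adjusted p of 0.999 in limma. *Ndufa13*, *Cox6b1* and *Atp5k* stayed under an unadjusted p of 0.05 in every alternative fit, and *Ndufb10* did not.

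**Figure D4:**
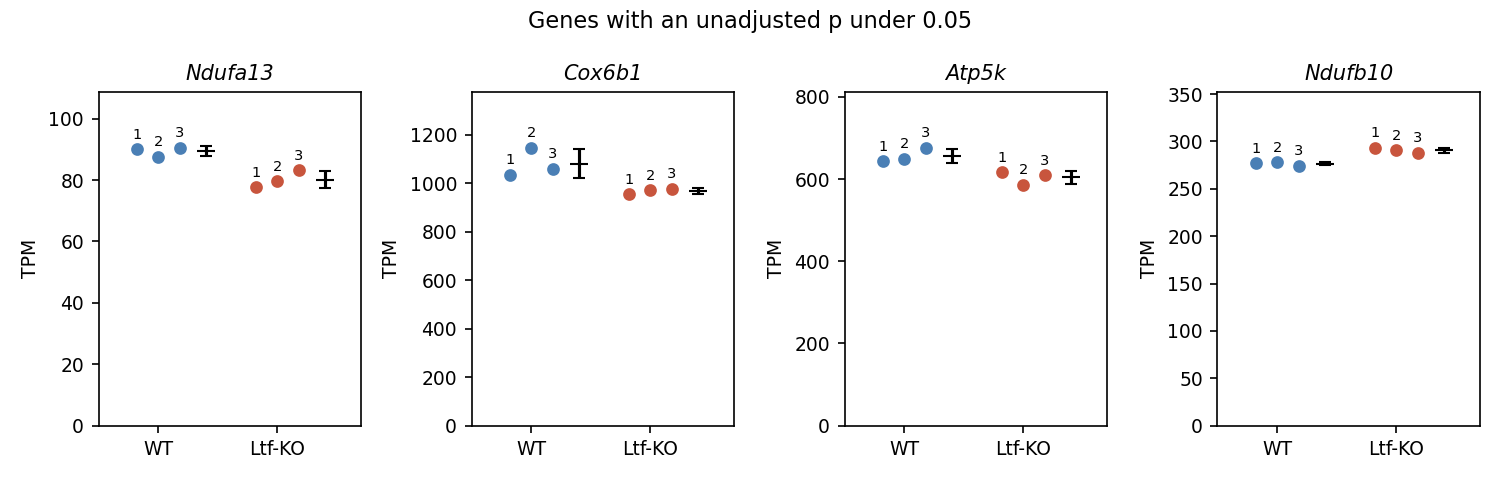
TPM in each library of *Ndufa13*, *Cox6b1*, *Atp5k* and *Ndufb10*, whose unadjusted p was under 0.05, with replicate numbers beside the points, bars for the mean and SD of 3 libraries and axes that start at 0. *Ndufa13*, *Cox6b1* and *Atp5k* are lower and *Ndufb10* is higher in all 3 *Ltf*-KO libraries, by at most 0.16 on the log2 scale.

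The 5 genes of largest absolute log2 fold change were mostly of low level. *Cox7a1* had a log2 fold change of 0.45 (95% interval -0.35 to 1.24), *Cox6b2* of 0.27 (-0.25 to 0.80) and *Atp6v1g2*, a V-ATPase form known from brain, of -0.23 (-0.54 to 0.07). *Atp6v1g2* was listed at 3.31, 3.39 and 4.02 TPM in WT and 3.04, 3.22 and 2.43 TPM in *Ltf*-KO. *Ndufv2*, a core subunit of complex I that carries an iron-sulfur cluster, followed with -0.17 (-0.36 to 0.01). It stood at 94.9, 93.9 and 95.04 TPM in WT and 90.3, 74.0 and 88.1 TPM in *Ltf*-KO, with one low library, *Ltf*-KO replicate 2. *Cox6b1* was the fifth. Single libraries weighed on these values. The log2 fold change of *Cox6b2* fitted without WT replicate 3 came to 0.04, or to 0.16 when *Ltf*-KO replicate 3 was left out, and that of *Atp6v1g2* was -0.14 without *Ltf*-KO replicate 3. For *Cox7a1* it was 0.24 without WT replicate 1, 0.79 without WT replicate 2 and 0.27 when *Ltf*-KO replicate 2 was left out, and for *Ndufv2* -0.08 without *Ltf*-KO replicate 2.

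By complex, medians stayed near 0 on both sides. The median log2 fold change was -0.02 in ATP synthase, where 11 of 15 tested genes were lower in *Ltf*-KO, and -0.01 in complex IV, where 8 of 15 were lower. In complex I, 21 of 36 were lower, in complex II 2 of 4 and in complex III 4 of 9. In the V-ATPase, 7 of 18 were lower. Summed over complex IV, the level was 7567 ± 12.5 TPM in WT and 7415 ± 119 TPM in *Ltf*-KO (SD, n = 3 each). The libraries did not overlap in this sum, at 7573, 7575 and 7552 TPM in WT and 7464, 7279 and 7501 TPM in *Ltf*-KO, and the difference was not tested. Without *Cox6b1* they overlapped, at 6538, 6428 and 6492 TPM in WT and 6509.8, 6308 and 6524 TPM in *Ltf*-KO. Over ATP synthase the sum was 9694 ± 204 TPM in WT and 9648 ± 335 TPM in *Ltf*-KO, with overlap. The median of ATP synthase was below 0 in every fit but small, from -0.03 to -0.00, and was not tested. No direction is given for the other complexes, since the sign of the median turned in at least 1 alternative fit for each of them.

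Libraries of one genotype also differed from each other. For each gene the deviation of a library from the mean of the 6 libraries was taken on the log2(TPM + 1) scale, and the median was taken over the genes of a complex. Over the 79 tested genes of the respiratory chain and ATP synthase, *Ltf*-KO replicate 2 was lowest at -0.05 and *Ltf*-KO replicate 3 highest at 0.03, while the other 4 libraries lay between -0.00 and 0.02. *Ltf*-KO replicate 2 was the lowest library for 31 of these 79 genes, beside 15.3% of all tested genes. In complexes I, II, III and IV and ATP synthase alike its median was the lowest of the 6. These counts and the next were made after the pattern was seen.

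The V-ATPase ran the other way. Its 18 tested genes had a median deviation of 0.09 in WT replicate 3 and 0.08 in *Ltf*-KO replicate 2, against -0.08 in *Ltf*-KO replicate 3 and -0.06 in WT replicate 1. *Atp6v0b* is an example, at 152, 157 and 181 TPM in WT and 162, 183 and 155 TPM in *Ltf*-KO. WT replicate 3 and *Ltf*-KO replicate 2 were the highest 2 libraries for 10 of the 18 genes, beside 10.6% of all tested genes, and for 1 of the 79 genes of the respiratory chain and ATP synthase. The summed V-ATPase level was 2142, 2179 and 2316 TPM in WT and 2184, 2334 and 2114 TPM in *Ltf*-KO. Means by genotype hid this spread, at 2212 ± 91.3 TPM in WT and 2211 ± 113 TPM in *Ltf*-KO (SD, n = 3 each).

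**Figure D5:**
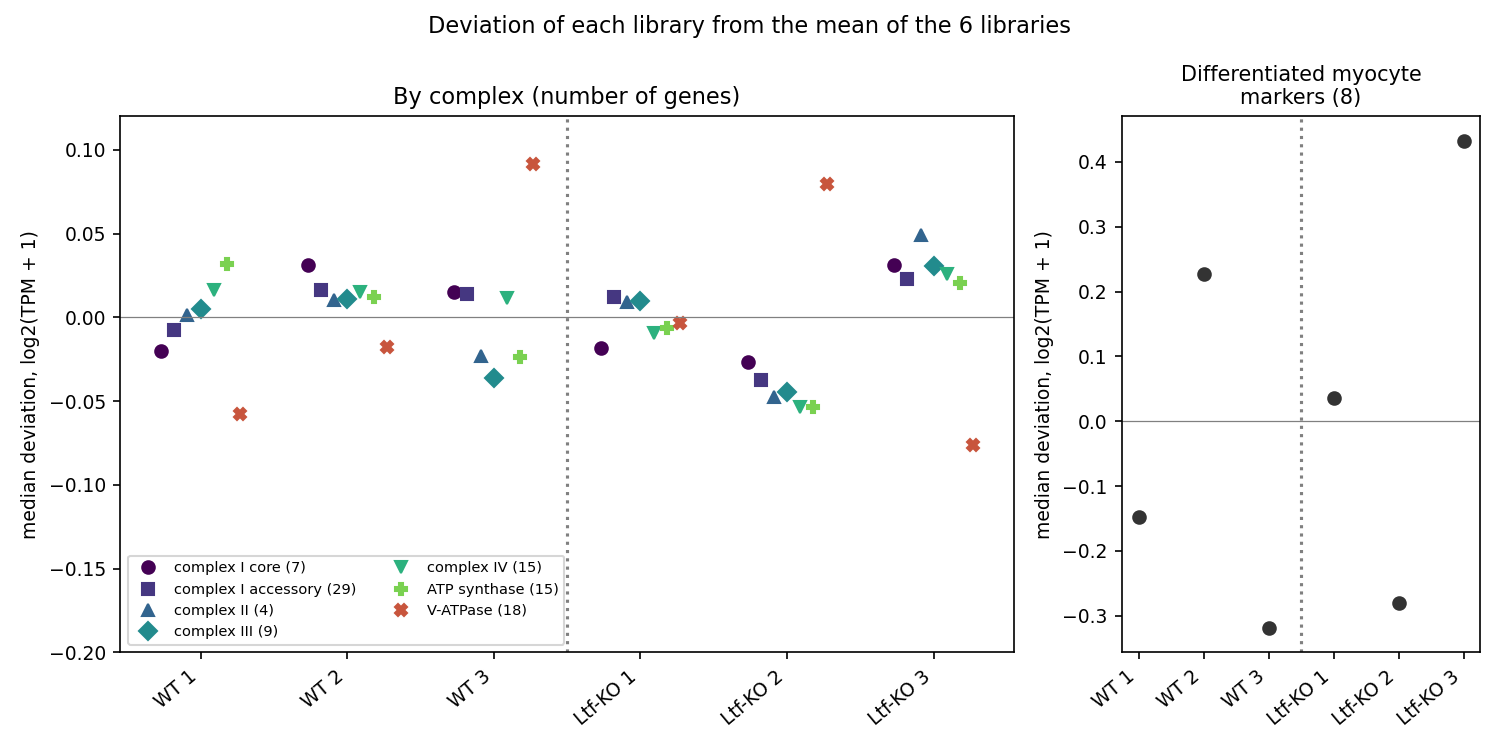
Median deviation of each library from the mean of the 6 libraries, on the log2(TPM + 1) scale, for the genes of each complex (left, number of tested genes in the legend) and for the 8 markers of differentiated myocytes (right). The V-ATPase is high in WT replicate 3 (0.09) and *Ltf*-KO replicate 2 (0.08), the libraries with the lowest myocyte markers (-0.32 and -0.28), and low in *Ltf*-KO replicate 3 (-0.08), where those markers are highest (0.43), while WT replicate 1 is low in both (-0.06 and -0.15).

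The 2 libraries with the highest V-ATPase medians had the lowest differentiation markers, but WT replicate 1 was low in both, at -0.06 for the V-ATPase and -0.15 for the markers. The median deviation of the 8 myocyte markers was -0.15, 0.23 and -0.32 in WT and 0.04, -0.28 and 0.43 in *Ltf*-KO. Markers of other cell types, not all of which are given here, were also high in WT replicate 3 and *Ltf*-KO replicate 2 in some lists, among them the fibroblast and endothelial markers, which were high in *Ltf*-KO replicate 1 as well, where the V-ATPase median was -0.00. The high and the low libraries of the V-ATPase were the same after quantile normalization, with 0.09 and 0.07 in WT replicate 3 and *Ltf*-KO replicate 2, and after median-of-ratios scaling, with 0.09 and 0.07. The part of differentiation or of other cell types in this pattern was not tested.

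Genes around the pathway were compared by list. Of 13 regulators of mitochondrial biogenesis, 12 were tested and 0 had an unadjusted p under 0.05 in limma, beside 3.78% of all tested genes, with 8 higher and 4 lower in *Ltf*-KO and a median log2 fold change of 0.02. *Ppargc1a*, the coactivator known to drive mitochondrial biogenesis in muscle, was low at 2.04 to 2.77 TPM, and *Tfam*, which packages mitochondrial DNA, stood at 38.9, 49.8 and 38.4 TPM in WT and 33.9, 37.8 and 40.3 TPM in *Ltf*-KO. Of 43 assembly factors outside the map, 42 were tested and 1 had an unadjusted p under 0.05, again beside 3.78%. This was *Ndufaf1*, which serves the assembly of complex I, at 17.2 ± 2.01 TPM in WT and 20.2 ± 1.30 TPM in *Ltf*-KO (SD, n = 3 each). Its unadjusted p was not under 0.05 without a filter, after quantile normalization, after median-of-ratios scaling or in 4 of the 6 fits that left out a library, and its log2 fold change was 0.23 as reported and 0.14 without WT replicate 3. *Lyrm7*, which serves the assembly of complex III and was chosen after its values were seen, had a log2 fold change of -0.53 (95% interval -1.06 to 0.01), which was -0.30 without *Ltf*-KO replicate 2. It was listed at 5.64, 5.14 and 5.26 TPM in WT and 3.35, 2.22 and 5.11 TPM in *Ltf*-KO, without overlap. Its unadjusted p was under 0.05 in 1 of the alternatives alone, without *Ltf*-KO replicate 3. The median of the assembly factors was 0.01.

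Cytochrome c and the carriers that exchange ADP, ATP and phosphate with the cytosol formed a further list of 9 genes. All 7 that were tested were lower in *Ltf*-KO, beside 44.3% of all tested genes, mostly by very little, with a median log2 fold change of -0.01, and 1 had an unadjusted p under 0.05, beside 3.78% of all tested genes. This was *Vdac2*, a channel of the outer membrane, at 255, 258 and 254 TPM in WT and 239, 238 and 242 TPM in *Ltf*-KO, with a log2 fold change of -0.09 (95% interval -0.16 to -0.03) and an adjusted p of 0.999 in limma. Without WT replicate 2 its unadjusted p was not under 0.05. Somatic cytochrome c, *Cycs*, ran from 79.8 to 90.6 TPM and was lowest in *Ltf*-KO replicate 2. Of the ADP/ATP carriers, *Slc25a5* exceeded *Slc25a4*, the form known from heart and muscle, by a ratio of 2.06 ± 0.0590 in WT and 1.99 ± 0.0784 in *Ltf*-KO (SD, n = 3 each). The testis forms *Cyct* and *Slc25a31* were listed at 0.

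The 13 mitochondrially encoded genes summed to 64475, 63375 and 60732 TPM in WT and 65772, 61705 and 60183 TPM in *Ltf*-KO. *mt-Atp8* alone averaged 30401 TPM, while *mt-Atp6*, *mt-Co3* and *mt-Co2* were listed between 350.2 and 400.1 TPM. These low values cannot be ranked beside the nuclear partners, since nearly all words of these genes also occur in abundant nuclear copies. Over the 13 genes the median log2 fold change was 0.01, with 8 higher and 5 lower. *mt-Atp6* and *mt-Nd3* had an unadjusted p under 0.05 (15.4%, beside 3.78% of all tested genes), both lower in *Ltf*-KO, the latter not so without WT replicate 3, *Ltf*-KO replicate 1 or *Ltf*-KO replicate 2. *mt-Atp6* was listed at 608, 562 and 284 TPM in WT and 223, 249.99 and 173 TPM in *Ltf*-KO. These values are uncertain, since 99.5% of the words of *mt-Atp6* also occur in *Gm10925*, a nuclear copy listed at 7044 TPM, and 98.1% of those of *mt-Nd3* in *Gm28438*, at 3142 TPM. Summed with its copy, *mt-Atp6* came to 7639, 7350.1 and 7145 TPM in WT and 7755, 7268 and 7208 TPM in *Ltf*-KO, and the genotypes overlapped. *mt-Co2*, *mt-Co3* and *mt-Nd4l* had copies that held at least 98.9% of their words. These copies, *Gm28661*, *Gm28437* and *Gm10222*, were listed at 13955, 8540 and 7733 TPM, so the levels of these mitochondrial genes are uncertain as well. *mt-Co1* shared 29.6% of its words with *Gm29216*, at 1337 TPM. The sum over the 13 genes leaves out what was listed under the copies and is therefore uncertain too.

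Counts for 2 other pathways of high level are given beside these. Of 39 tested genes of glycolysis and gluconeogenesis, 1 had an unadjusted p under 0.05 (2.56%, beside 3.78% of all tested genes), with a median log2 fold change of -0.01. Of 129 tested ribosome genes, 4 did (3.10%), with a median log2 fold change of -0.02. Of these 129, 90 were lower in *Ltf*-KO (69.8%), beside 44.3% of all tested genes and 54.8% of the oxidative phosphorylation genes.

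Upstream sequences of the genes were searched for sites of known regulators of the pathway. The promoter set used here, taken from RefSeq (GRCm38.p6), was matched by symbol and gave entries for 92 of the 119 genes. The 250 bases before each start were searched on both strands. The build differs from GRCm39, which the submitters' processing notes name for the deposited values, so the positions below apply to GRCm38.p6 alone. GCGCATGCG, a core of the sites bound by NRF1, a regulator of respiratory genes, was found in 6.86% of 102 promoters of pathway genes and 1.45% of all 32851 promoters. CCGGAAG, bound by ETS factors such as GABPA, was found in 14.7% and 6.91%. For CAAGGTCA, bound by the ERR receptors, the shares were 2.94% and 1.33%, and for ATGGCGGC, a core of YY1 sites, 1.96% and 1.03%, the former from 2 overlapping promoters of *Ndufa7* that hold the same site. TCACGTGA, an E-box known from lysosomal genes, was found in 2.94% of the pathway promoters and 0.785% of all. It was not particular to the V-ATPase, with 1 of 23 V-ATPase promoters (4.35%) and 2 of 72 promoters of the respiratory chain and ATP synthase (2.78%), both of *Ndufa7* and again the same site. CAGCTG, an E-box form bound by muscle factors such as MyoD, was found in 6.86% of the pathway promoters and 13.0% of all. A match describes letters in a window and does not show that a factor binds there.

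The windows shown hold a match in *Atp5k* and *Cox6b1*, of the 4 genes with an unadjusted p under 0.05, in *Cox8b*, the most abundant muscle form, and in *Atp6v1a*, a V-ATPase gene with the lysosomal E-box. All lie upstream of the start on the minus strand of GRCm38.p6 and are written 5′ to 3′ with the match in capitals, which for *Atp5k* joins overlapping matches on both strands. *Ndufb10* also has a match, to CAGCTG, which is not shown.
Atp5k (NRF1 core, chr5:108434400-108434489): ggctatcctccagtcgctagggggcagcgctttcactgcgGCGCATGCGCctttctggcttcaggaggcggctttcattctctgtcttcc
Cox6b1 (ETS motif, read on the other strand, chr7:30626115-30626182): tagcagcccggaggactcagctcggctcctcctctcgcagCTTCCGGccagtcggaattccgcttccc
Cox8b (muscle E-box, chr7:140900447-140900505): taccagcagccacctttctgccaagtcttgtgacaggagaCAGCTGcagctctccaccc
Atp6v1a (lysosomal E-box, chr16:44139344-44139431): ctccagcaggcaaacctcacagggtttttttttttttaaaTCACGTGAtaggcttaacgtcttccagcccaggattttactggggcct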

How the data were processed

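RNA of cultured SCs was sequenced by the authors in 3 WT and 3 *Ltf*-KO libraries. The deposited TPM values were made by the authors through a sequencing company's standard protocol, with GRCm39 named as the build, and their unit was inferred from the column totals. Counts were not used here, and the depth is unknown. All 55416 genes were read and the 12956 with a mean of 1 TPM or more (23.4%) were fitted on log2(TPM + 1) with limma 3.58.1 in R 4.3.3 (eBayes with trend), with Benjamini-Hochberg adjustment over all of them. Isoform shares were compared by an exact permutation test. Alternatives were a pseudocount of 0.1, no filter, a mean of 10 TPM, quantile normalization, median-of-ratios scaling, a replicate block, leaving out each library and, chosen after seeing the data, mitochondrial members only. Members, lists and motifs were chosen with earlier results of these data known. Genes were to be named if they were isoforms of a family, the 2 most abundant of a complex, at an unadjusted p under 0.05, among the 5 largest fold changes, or in the lists of markers, regulators, assembly factors and carriers. Others, such as the lowest gene of a complex, *Sdhb*, *Cox11*, *Cox15*, *Atp6v0b* and *Atp6v1a*, were chosen after their values were seen. Shared sequence was read from GENCODE M21 transcripts and promoters from RefSeq (GRCm38.p6) with Python 3.11.15.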

Additional observations from a re-analysis of the deposited data

How the results depend on the processing

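No gene of the pathway passed an adjusted p of 0.05 in limma in any of the 12 alternatives fitted. The number at an unadjusted p under 0.05 was 4 as reported. It was 6 when genes were not filtered (5.26%, beside 3.35% of all tested genes), 4 when the pseudocount was 0.1 (3.85% beside 3.79%), 3 for the minimum of 10 TPM (3.06% beside 3.48%), 5 after quantile normalization (4.81% beside 3.92%) and 4 after median-of-ratios scaling (3.85% beside 3.88%). All 5 and all 4 of the last 2 were lower in *Ltf*-KO, against 3 lower and 1 higher as reported. With the replicate block (paired by replicate number) it was 4, beside 2.93% of all tested genes, and leaving out each library gave 3 to 7, with 7 without WT replicate 1 (6.73% beside 3.83%). Mitochondrial members only, chosen after seeing the data, also gave 4. The median log2 fold change of the pathway genes ran from -0.02 (median-of-ratios scaling) to 0.00 (without *Ltf*-KO replicate 2). Quantile normalization turned the log2 fold changes of *Cox4i1* (0.0184) and *Cox6a1* (0.00672), and median-of-ratios scaling that of *Cox8a* (-0.00156). Leaving out libraries gave log2 fold changes of -0.0722 to 0.483 for *Cox6a2*, -0.061 to 0.00531 for *Cox6a1*, -0.249 to 0.0757 for *Cox8b* and -0.0215 to 0.0502 for *Cox8a*. The difference in share ran from -0.0286 to 0.00817 percentage points for *Cox4i2* and from -0.562 to 0.0953 for *Cox8b*. They ran from 0.0121 to 0.195 for *Cox6a2* and from 0.391 to 1.19 for *Cox7a1*. When libraries were left out, the log2 fold change of *Cox7a1* ran from 0.24 to 0.79, that of *Cox6b2* from 0.04 to 0.39 and that of *Atp6v1g2* from -0.29 to -0.14. Genes that were not under an unadjusted p of 0.05 as reported were so in some alternatives: *Ndufa2* (no filter and both scalings), *Atp6v1e2* (no filter), *Cox7a2* (quantile normalization and without *Ltf*-KO replicate 3), *Cox7a1* (replicate block and without WT replicate 2), *Ndufa1*, *Ndufab1*, *Ndufv1* and *Uqcrfs1* (without WT replicate 1), *Tcirg1* (without WT replicate 2), *Ndufv2* (without *Ltf*-KO replicate 1), *Cox6a2* and *Ndufa5* (without *Ltf*-KO replicate 2), and *Cox10* and *Cox8b* (without *Ltf*-KO replicate 3). The log2 fold change of *Lyrm7*, tried after seeing the data, ran from -0.76 to -0.30 when libraries were left out. The unadjusted p of *Vdac2* was not under 0.05 with the replicate block. The cause was not tested. At the minimum of 10 TPM, *Cox6a2*, *Cox7a1*, *Cox6b2*, *Atp6v1g2*, *Pdgfrb* and *Lyrm7* gave no value. The unknown depth limits what can be said of genes at a few TPM.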
